A study of Mus musculus with 17 samples.

Results

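Netrins and Slits are secreted cues that steer growing axons, and the same ligands and receptors act in the developing kidney. Netrin ligands are read by the receptors Dcc and neogenin, which often attract, and by the Unc5 receptors, which often repel. Slit ligands are read by the Robo receptors and mostly repel. In the early kidney, Slit2 and Robo2 are known to keep the domain of Gdnf, the signal that calls out the ureteric bud, at the posterior end, and netrin-1 is known as a product of the cortical stroma. The genes described here are 2 netrins (Ntn1, Ntn4), 4 netrin receptors (Dcc, Neo1, Unc5b, Unc5c), 2 Slits (Slit2, Slit3) and 2 Robo receptors (Robo1, Robo2), chosen by symbol. They were chosen with earlier results of these data known. All 10 were found among the 24432 gene IDs of the expression table, and 9 passed the filter of at least 1 FPKM in at least 3 of the 17 libraries. Ntn4 did not pass, and its values are given without a call.

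RNA was sequenced in bulk from whole mouse kidneys dissected at E12.5, on a mixed strain background. The first mutant group held 5 libraries of genotype Ctnnb1-delta3 c/+;Foxd1, called Foxd1-Cre here, in which Cre in the stromal lineage switches on a stabilised beta-catenin, the effector of Wnt signalling, from 1 Ctnnb1 allele. The second held 3 libraries of genotype Ctnnb1-delta3 c/+;Six2, called Six2-Cre here, in which Cre in the nephron progenitor lineage does the same. The 9 wild-type libraries carried no stated allele, and whether they carried Cre is not given in the sources used here. Foxd1-Cre libraries were set against wild types 1 to 6 and Six2-Cre libraries against wild types 7 to 9. Nothing in the labels says that the libraries came from separate embryos or litters, so the p-values measure the spread between these libraries, which may be in part technical. A level for the whole Ctnnb1 gene cannot show the loss of an exon and was not used to check the genotypes.

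The libraries fell into 2 sets that the labels do not name. Foxd1-Cre libraries and wild types 1 to 6 had 5312 to 5807 genes listed at 0, and Six2-Cre libraries and wild types 7 to 9 had 7590 to 7891. The smallest steps between FPKM values gave an estimated 27900000 to 35200000 reads per library in the first set and 5000000 to 5700000 in the second, so low values are less precise in the Six2-Cre comparison. Wild types 7 to 9 differed from wild types 1 to 6 at several of these genes, with ratios of their mean FPKM of 2.26 for Slit2, 1.86 for Robo1, 1.71 for Robo2, 1.69 for Dcc, 1.68 for Unc5c and 0.688 for Unc5b. Levels were therefore compared only within a set. Among the wild types of the first set, replicate 5 was lowest for 9 of the 10 genes. In that library the 1949 genes with a transcript of 6000 bases or more lay below the mean of the other wild types in the median. Their median log2 deviation was -0.11 in wild type 5 and -0.10 in wild type 2. Among these wild types, replicate 2 was lowest for Ntn1 and second lowest, after replicate 5, for Dcc, Neo1, Unc5c, Slit2, Robo1 and Robo2. It was highest for Unc5b. Why wild type 5 was low was not tested, and each result that changes without it is named.

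Ntn1 fell in both mutants, while the receptors Dcc, Unc5b and Robo1 rose in both. Slit2 rose and Robo2 fell in Six2-Cre kidneys, and neither passed the test in Foxd1-Cre kidneys. In Foxd1-Cre kidneys 3 of the 9 genes tested rose and 1 fell, beside 13.3% of all 13996 genes called in either direction (8.45% higher, 4.82% lower; 1182 and 674 genes, or 1228 and 405 after rescaling the libraries to equal sums). In Six2-Cre kidneys 4 rose and 2 fell, beside 13.8% of all 13828 genes called (7.93% higher, 5.84% lower). A call is an adjusted p under 0.05 by limma on log2(FPKM + 1), two-sided, adjusted by the Benjamini-Hochberg method over all genes of the comparison, and a log2 change in the text is on that scale with its standard error (SE). On that scale the change of genes near 1 FPKM, such as Dcc, is smaller than their fold in FPKM. The median log2 change of the 9 genes was 0.24 in Foxd1-Cre kidneys and 0.15 in Six2-Cre kidneys, beside -0.01 over all genes in each comparison.

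The 4 members called in Six2-Cre kidneys that have a start site in the RefSeq promoter table are shown by the 250 bases before that start, in GRCm38.p6, read 5′ to 3′ on the gene's strand, since they moved in the same kidneys and in different directions. The Unc5b window is chr10:60831582-60831831 on the minus strand, at the start of the annotated gene. The Slit2 window is chr5:47982905-47983154 on the plus strand, and its last 17 bases lie inside the annotated gene. The Robo1 window is chr16:72662899-72663148 on the plus strand, at a start that lies 354843 bases inside the annotated gene. For Robo2 the table has 3 starts, and the window shown is chr16:74411826-74412075 on the minus strand, at the start of the annotated gene. The other Robo2 starts lie 680945 and 1035468 bases from there.
Unc5b: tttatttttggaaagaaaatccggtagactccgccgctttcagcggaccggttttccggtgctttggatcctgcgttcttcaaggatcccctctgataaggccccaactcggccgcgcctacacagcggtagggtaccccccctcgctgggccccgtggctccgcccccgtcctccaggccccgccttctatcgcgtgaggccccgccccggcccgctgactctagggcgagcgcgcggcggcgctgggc
Slit2: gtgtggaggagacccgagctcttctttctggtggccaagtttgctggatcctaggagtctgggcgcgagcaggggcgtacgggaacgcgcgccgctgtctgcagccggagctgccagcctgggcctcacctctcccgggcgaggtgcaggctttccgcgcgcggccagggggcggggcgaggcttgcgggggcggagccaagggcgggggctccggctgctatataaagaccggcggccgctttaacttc
Robo1: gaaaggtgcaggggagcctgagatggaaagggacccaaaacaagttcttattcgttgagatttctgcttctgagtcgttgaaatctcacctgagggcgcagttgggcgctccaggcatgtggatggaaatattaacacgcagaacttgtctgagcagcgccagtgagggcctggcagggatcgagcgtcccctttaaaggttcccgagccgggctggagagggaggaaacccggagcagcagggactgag
Robo2: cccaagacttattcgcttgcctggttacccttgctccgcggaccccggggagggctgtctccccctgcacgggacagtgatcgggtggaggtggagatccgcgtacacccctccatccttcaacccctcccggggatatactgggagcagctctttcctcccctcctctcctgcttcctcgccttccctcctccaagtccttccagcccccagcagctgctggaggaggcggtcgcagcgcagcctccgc
These windows were searched on both strands for CTTTGAA and CTTTGAT, the core letters of the site bound by the TCF/LEF partners of beta-catenin. Of the 10 genes, 8 had an entry in the promoter table, and no window of these 8 held either motif. Over 32851 mouse promoter windows of the same length, 7.48% held at least 1 of the motifs, 4.46% the first and 3.21% the second. No capitals are therefore printed, and the search says nothing of sites outside these windows. Ntn1 and Dcc had no entry.

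**Figure D1:**
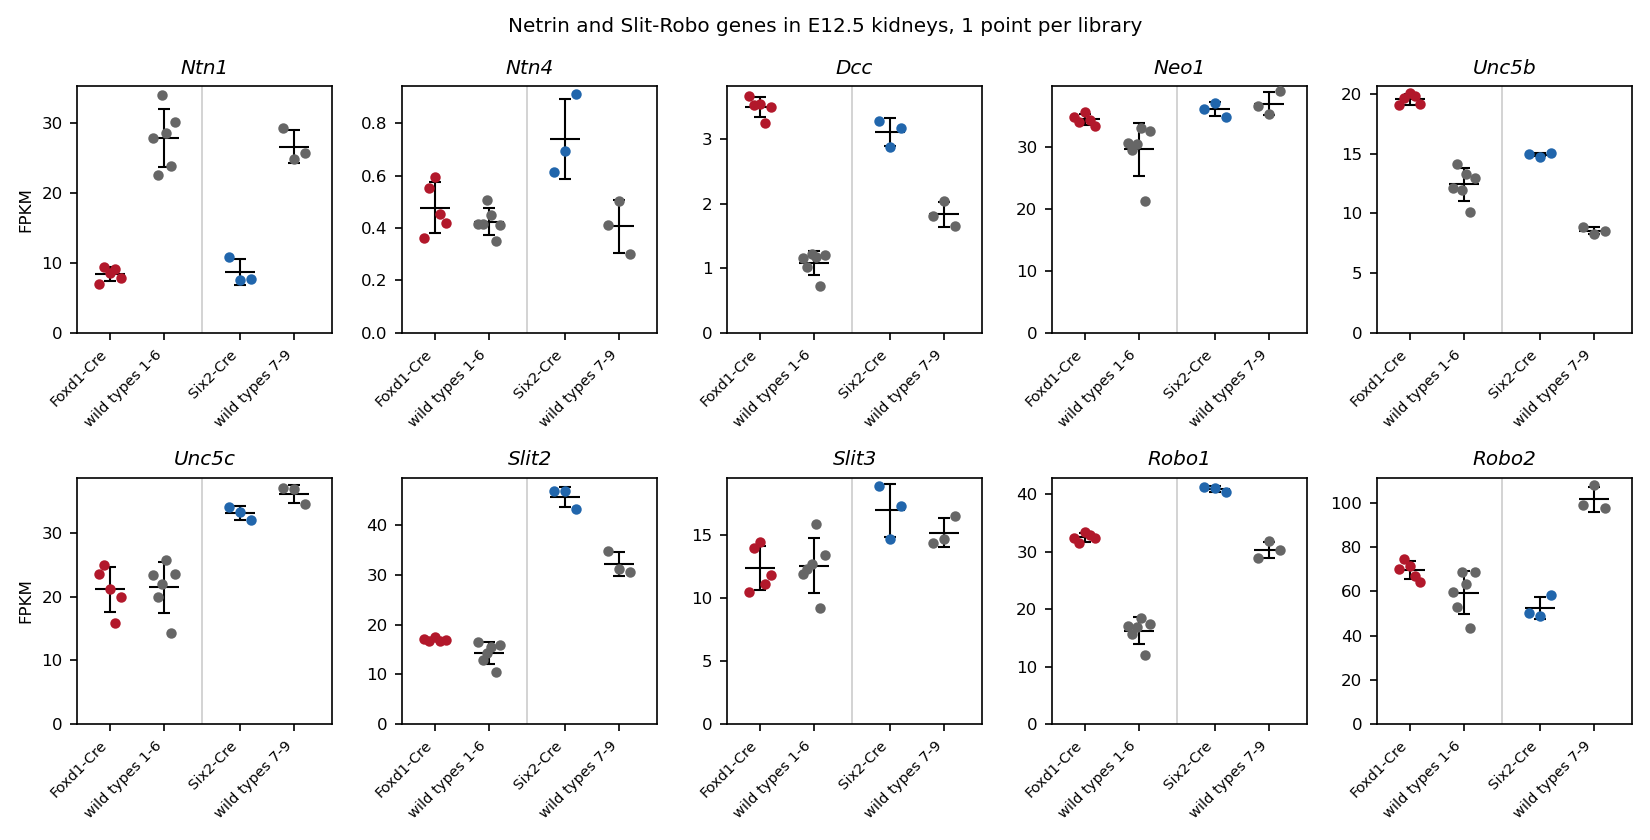
FPKM of each of the 10 genes in every library (points), with the mean and SD of each group (bars); Foxd1-Cre (red) and Six2-Cre (blue) each stand left of their wild types (grey), and a vertical line parts the library sets. Ntn1 is lower and Dcc, Unc5b and Robo1 are higher in every mutant library than in any of its wild types, and Robo2 is lower in the Six2-Cre libraries only.

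Ntn1 encodes netrin-1, the secreted founding ligand of the family (ENSMUSG00000020902, GRCm38 chromosome 11, 68209364 to 68400823, minus strand). It was at 6.92, 9.39, 8.54, 9.12 and 7.79 FPKM in the 5 Foxd1-Cre libraries, against a lowest value of 22.7, a median of 28.2 and a highest value of 34.0 FPKM in wild types 1 to 6. Every Foxd1-Cre library lay below every wild type, and the highest mutant value was under the lowest wild-type value by a wide margin. Ntn1 averaged 8.35 ± 1.01 FPKM in Foxd1-Cre kidneys (SD, n = 5) and 27.9 ± 4.15 FPKM in wild types (SD, n = 6), which is 3.34-fold lower in Foxd1-Cre kidneys. Its log2 change was -1.62 ± 0.10 (SE, limma adjusted p = 8.0e-07).

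In Six2-Cre kidneys, where the stroma is not the lineage that carries the stabilised allele, Ntn1 was at 10.8, 7.61 and 7.70 FPKM, against 29.3, 24.8 and 25.8 FPKM in wild types 7 to 9. The groups did not overlap, and Six2-Cre replicate 1 was the highest of the mutants. Mean Ntn1 was 8.71 ± 1.83 FPKM in Six2-Cre kidneys and 26.7 ± 2.35 FPKM in wild types (SD, n = 3 each), 3.06-fold lower in Six2-Cre kidneys, with a log2 change of -1.52 ± 0.14 (SE, limma adjusted p = 0.00205). The effect in Foxd1-Cre kidneys minus that in Six2-Cre kidneys was -0.10 for Ntn1, with a 95% interval from -0.48 to 0.28 (limma adjusted p = 0.793). The interval holds differences of either sign, so the sizes of the falls could not be told apart at this number of libraries.

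Markers of the cell types moved beside Ntn1 in different ways. The summed level of 6 cortical stroma markers (Foxd1, Aldh1a2, Fibin, Dcn, Tcf21 and Meis1) was 274 to 305 FPKM in Foxd1-Cre libraries, against 501 to 557 FPKM in their wild types, and 4 of the 6 fell. In Six2-Cre libraries the same sum was 468 to 495 FPKM, against 451 to 473 FPKM in wild types. There 1 of the 6 rose (Meis1, log2 change 0.32) and none fell. Foxd1 itself, the transcription factor that marks the cortical stroma, averaged 71.3 ± 4.02 FPKM in Six2-Cre kidneys and 74.1 ± 6.73 FPKM in wild types (SD, n = 3 each), with a log2 change of -0.05 ± 0.08 (SE, limma adjusted p = 0.710). In Foxd1-Cre kidneys the log2 change of Foxd1 was -2.32 ± 0.10 (SE, limma adjusted p = 1.9e-08). Ntn1 was thus lower beside a lower stromal sum in Foxd1-Cre kidneys and beside an overlapping one in Six2-Cre kidneys. In whole kidneys, fewer cells of a type and less RNA per cell cannot be told apart. None of these markers was at 0 in all libraries of a comparison, and their part in the Ntn1 result was not tested.

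Ntn4 encodes netrin-4, a netrin of basement membranes (chromosome 10, 93640681 to 93747207, plus strand). It stayed below 1 FPKM in all 17 libraries, at 0.363, 0.555, 0.596, 0.454 and 0.419 FPKM in Foxd1-Cre libraries, against a lowest value of 0.348, a median of 0.414 and a highest value of 0.506 FPKM in wild types 1 to 6. These groups overlapped. In Six2-Cre libraries Ntn4 was at 0.614, 0.693 and 0.912 FPKM, against 0.413, 0.503 and 0.302 FPKM in wild types 7 to 9, without overlap. Such values rest on an estimated 6 to 19 reads per library in the second set and 35 to 71 in the first, so the depth allows little precision. Without the filter on low values its log2 change was 0.05 (limma adjusted p = 0.579) in Foxd1-Cre kidneys and 0.31 ± 0.10 (SE, limma adjusted p = 0.128) in Six2-Cre kidneys.

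Dcc encodes the classic attractive netrin receptor (ENSMUSG00000060534, chromosome 18). It was at 3.68, 3.54, 3.54, 3.25 and 3.50 FPKM in Foxd1-Cre libraries, against a lowest value of 0.723, a median of 1.17 and a highest value of 1.22 FPKM in wild types 1 to 6. All mutant libraries lay within a narrow band above every wild type. Mean Dcc was 3.50 ± 0.155 FPKM in Foxd1-Cre kidneys (SD, n = 5) and 1.08 ± 0.189 FPKM in wild types (SD, n = 6), 3.23-fold higher in Foxd1-Cre kidneys, with a log2 change of 1.12 ± 0.07 (SE, limma adjusted p = 5.0e-07). This was the largest fold rise in FPKM among the 10 genes in that comparison.

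Dcc was at 3.29, 2.87 and 3.17 FPKM in Six2-Cre libraries, against 1.81, 2.04 and 1.65 FPKM in wild types 7 to 9. The groups did not overlap, and the mean was 1.70-fold higher in Six2-Cre kidneys, with a log2 change of 0.54 ± 0.10 (SE, limma adjusted p = 0.0219). That call rested on the number of libraries: it ended on leaving out Six2-Cre replicate 1 (limma adjusted p = 0.0735), 2 (0.0538) or 3 (0.0806), or wild type 7 (0.0641) or 9 (0.0576), with log2 changes from 0.49 to 0.59. Its values rest on an estimated 92 to 186 reads per library in the second set and 208 to 1286 in the first. The rise was larger in Foxd1-Cre than in Six2-Cre kidneys, by 0.58 ± 0.12 on the log2 scale (SE, limma adjusted p = 0.0102), a call that ended without Six2-Cre replicate 2 (limma adjusted p = 0.0506) and against all 9 wild types (0.13, limma adjusted p = 0.434).

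Neo1 encodes neogenin, the broadly expressed relative of Dcc that also binds repulsive guidance molecules (chromosome 9, 58874687 to 59036441, minus strand). It was at 34.8, 34.1, 35.6, 34.4 and 33.4 FPKM in Foxd1-Cre libraries, against a lowest value of 21.3, a median of 30.6 and a highest value of 33.0 FPKM in wild types 1 to 6. The groups did not overlap, though the nearest values were close, and wild type 5 held the lowest value. The log2 change was 0.23 ± 0.09 (SE) and did not pass the test (limma adjusted p = 0.154), but without wild type 5 it was 0.14 ± 0.03 (SE) and did (limma adjusted p = 0.0241). In Six2-Cre kidneys Neo1 averaged 36.1 ± 1.13 FPKM, and in their wild types 37.0 ± 1.87 FPKM (SD, n = 3 each), with overlapping groups and a log2 change of -0.03 ± 0.05 (SE, limma adjusted p = 0.727).

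Unc5b encodes a repulsive netrin receptor known best from endothelial cells (ENSMUSG00000020099, chromosome 10, 60762593 to 60831581, minus strand). Foxd1-Cre libraries had 19.1, 19.7, 20.1, 19.8 and 19.1 FPKM of Unc5b, against a lowest value of 10.1, a median of 12.54 and a highest value of 14.1 FPKM in wild types 1 to 6. Six2-Cre libraries had 15.0, 14.8 and 15.0 FPKM, against 8.87, 8.28 and 8.50 FPKM in wild types 7 to 9. In both comparisons every mutant library was above every wild type, and the mutant values were tightly grouped. The mean was 1.57-fold higher in Foxd1-Cre kidneys, with a log2 change of 0.62 ± 0.07 (SE, limma adjusted p = 6.2e-05), and 1.75-fold higher in Six2-Cre kidneys, with a log2 change of 0.74 ± 0.06 (SE, limma adjusted p = 0.0013). The effects differed by -0.12 (95% interval -0.30 to 0.07, limma adjusted p = 0.463).

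Endothelial markers moved beside Unc5b mainly in Six2-Cre kidneys. The sum of 10 endothelial markers was 233 to 245 FPKM in Six2-Cre libraries, against 117 to 140 FPKM in their wild types, and all 10 rose. In Foxd1-Cre libraries that sum was 189 to 245 FPKM, against 181 to 219 FPKM in wild types, where 2 of the 10 rose and the ranges overlapped. None of the 10 was at 0 in all libraries of a comparison. Unc5b thus did not overlap between Foxd1-Cre libraries and wild types while the endothelial sum did, and the part of endothelial cells in the Unc5b results was not tested.

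Unc5c encodes another repulsive receptor of the family (chromosome 3, 141465216 to 141834924, plus strand). Its level was 23.5, 24.9, 21.3, 15.9 and 20.0 FPKM in Foxd1-Cre libraries, against a lowest value of 14.3, a median of 22.7 and a highest value of 25.6 FPKM in wild types 1 to 6. These groups overlapped fully, and the log2 change was -0.01 ± 0.15 (SE, limma adjusted p = 0.963), with a 95% interval from -0.33 to 0.30. In Six2-Cre libraries Unc5c was at 34.1, 33.2 and 31.9 FPKM, against 36.9, 36.9 and 34.5 FPKM in wild types 7 to 9. The mutants lay just below the wild types without overlap, but the log2 change was -0.12 ± 0.05 and missed the threshold (SE, limma adjusted p = 0.162).

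Slit2 encodes a secreted ligand of the Robo receptors (ENSMUSG00000031558, chromosome 5, 47983138 to 48307733, plus strand). It was at 46.9, 46.9 and 43.3 FPKM in Six2-Cre libraries, against 35.0, 31.2 and 30.6 FPKM in wild types 7 to 9. The groups did not overlap. Mean Slit2 was 45.7 ± 2.08 FPKM in Six2-Cre kidneys and 32.3 ± 2.35 FPKM in wild types (SD, n = 3 each), 1.42-fold higher in Six2-Cre kidneys, with a log2 change of 0.49 ± 0.07 (SE, limma adjusted p = 0.00665).

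Foxd1-Cre libraries had 17.1, 16.8, 17.5, 16.8 and 16.98 FPKM of Slit2, against a lowest value of 10.4, a median of 14.9 and a highest value of 16.6 FPKM in wild types 1 to 6. The mutants were above all wild types, with the closest values almost touching, and the log2 change was 0.25 ± 0.10 and missed the threshold (SE, limma adjusted p = 0.120). The difference between the mutant effects was -0.24 (95% interval -0.48 to 0.01, limma adjusted p = 0.221). Without wild type 5 that difference was -0.32 and passed the test (limma adjusted p = 0.0274).

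Slit3 encodes a related Slit (chromosome 11, 35121224 to 35708507, plus strand). It was at 10.5, 13.9, 14.5, 11.1 and 11.8 FPKM in Foxd1-Cre libraries, against a lowest value of 9.23, a median of 12.496 and a highest value of 15.9 FPKM in wild types 1 to 6. In Six2-Cre libraries it was at 18.8, 14.7 and 17.3 FPKM, against 14.4, 14.6 and 16.5 FPKM in wild types 7 to 9. The groups overlapped in both comparisons. The log2 change was -0.02 ± 0.12 (SE, limma adjusted p = 0.954) in Foxd1-Cre kidneys and 0.15 ± 0.10 (SE, limma adjusted p = 0.405) in Six2-Cre kidneys.

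Robo1 encodes a Slit receptor (ENSMUSG00000022883, chromosome 16, 72308306 to 73046095, plus strand). It was at 32.4, 31.5, 33.4, 32.9 and 32.4 FPKM in Foxd1-Cre libraries, against a lowest value of 12.0, a median of 17.1 and a highest value of 18.5 FPKM in wild types 1 to 6. Each mutant library lay well above the highest wild type. Mean Robo1 was 32.5 ± 0.721 FPKM in Foxd1-Cre kidneys (SD, n = 5) and 16.3 ± 2.29 FPKM in wild types (SD, n = 6), with a log2 change of 0.97 ± 0.09 (SE, limma adjusted p = 1.4e-05).

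In Six2-Cre libraries Robo1 was at 41.4, 41.2 and 40.4 FPKM, against 29.0, 31.8 and 30.3 FPKM in wild types 7 to 9. The groups did not overlap, the mean was 1.35-fold higher in Six2-Cre kidneys, and the log2 change was 0.42 ± 0.05 (SE, limma adjusted p = 0.00396). The rise was larger in Foxd1-Cre than in Six2-Cre kidneys by 0.54 ± 0.10 on the log2 scale (SE, limma adjusted p = 0.00164). Against all 9 wild types, which mixes the library sets, that difference was -0.32 (limma adjusted p = 0.254).

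Robo2 encodes the Slit receptor with the known role in placing the Gdnf domain (ENSMUSG00000052516, chromosome 16, 73891839 to 74411825, minus strand), and it had the highest mean FPKM of the 10 genes in every group. It was at 50.3, 49.0 and 58.3 FPKM in Six2-Cre libraries, against 99.0, 108 and 97.7 FPKM in wild types 7 to 9. The highest mutant lay far below the lowest wild type. Mean Robo2 was 52.5 ± 4.99 FPKM in Six2-Cre kidneys and 102 ± 5.76 FPKM in wild types (SD, n = 3 each), 1.94-fold lower in Six2-Cre kidneys, with a log2 change of -0.94 ± 0.08 (SE, limma adjusted p = 0.00162).

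In Foxd1-Cre libraries Robo2 was at 70.3, 74.7, 71.5, 66.9 and 64.5 FPKM, against a lowest value of 43.7, a median of 61.5 and a highest value of 68.9 FPKM in wild types 1 to 6. The groups overlapped, and the log2 change was 0.24 ± 0.11 and missed the threshold (SE, limma adjusted p = 0.190). The effect on Robo2 in Foxd1-Cre kidneys exceeded that in Six2-Cre kidneys by 1.18 ± 0.13 on the log2 scale (SE, limma adjusted p = 9.5e-06), the largest difference among the 9 genes tested. Against all 9 wild types the Six2-Cre change of Robo2 was -0.42 and did not pass (limma adjusted p = 0.109), and the difference between the mutants was 0.40 (limma adjusted p = 0.145).

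Nephron progenitor markers moved beside Robo2. The sum of 6 such markers (Six2, Cited1, Eya1, Meox1, Uncx and Crym) was 88.9 to 93.5 FPKM in Six2-Cre libraries, against 266 to 305 FPKM in their wild types, and all 6 fell. In Foxd1-Cre libraries the sum was 270 to 308 FPKM, against 344 to 441 FPKM in wild types, and 4 of the 6 fell, while Robo2 values overlapped there. None of these markers was at 0 in all libraries of a comparison, and the part of nephron progenitors in the Robo2 result was not tested.

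**Figure D2:**
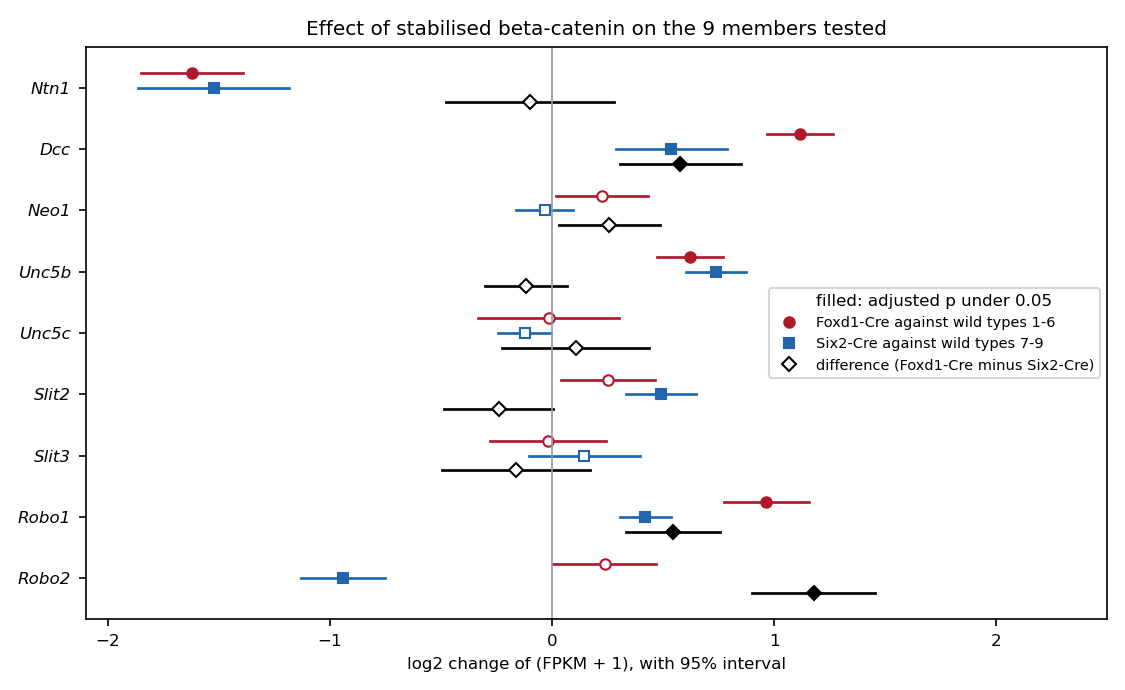
Log2 change of FPKM + 1 with its 95% interval for the 9 genes tested, in Foxd1-Cre kidneys (red circles) and Six2-Cre kidneys (blue squares) against their own wild types, and the difference of these effects (black diamonds); filled symbols have a limma adjusted p under 0.05. The effects on Ntn1 and Unc5b lie close together, while Dcc, Robo1 and Robo2 have filled diamonds, at 0.58, 0.54 and 1.18.

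Tested as a difference, 3 of the 9 genes (Dcc, Robo1 and Robo2) were called, beside 11.0% of all 13810 genes. Each mutant has its own library set, so a difference between the mutants cannot be told apart from one between the sets. All 3 differences were positive, beside 5.76% of all genes called with a positive and 5.24% with a negative difference. For Dcc and Robo1 a positive value means a larger rise in Foxd1-Cre kidneys, and for Robo2 it means a fall in Six2-Cre kidneys that the Foxd1-Cre kidneys did not show. No member was called in opposite directions in the mutants. Counting libraries rather than p-values, 6 of the 9 genes did not overlap between Foxd1-Cre libraries and wild types, beside 10.7% of all genes (6.89% higher, 3.80% lower in Foxd1-Cre kidneys). Between Six2-Cre libraries and wild types 7 of 9 did not overlap, beside 35.7% (18.0% higher, 17.7% lower in Six2-Cre kidneys).

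**Figure D3:**
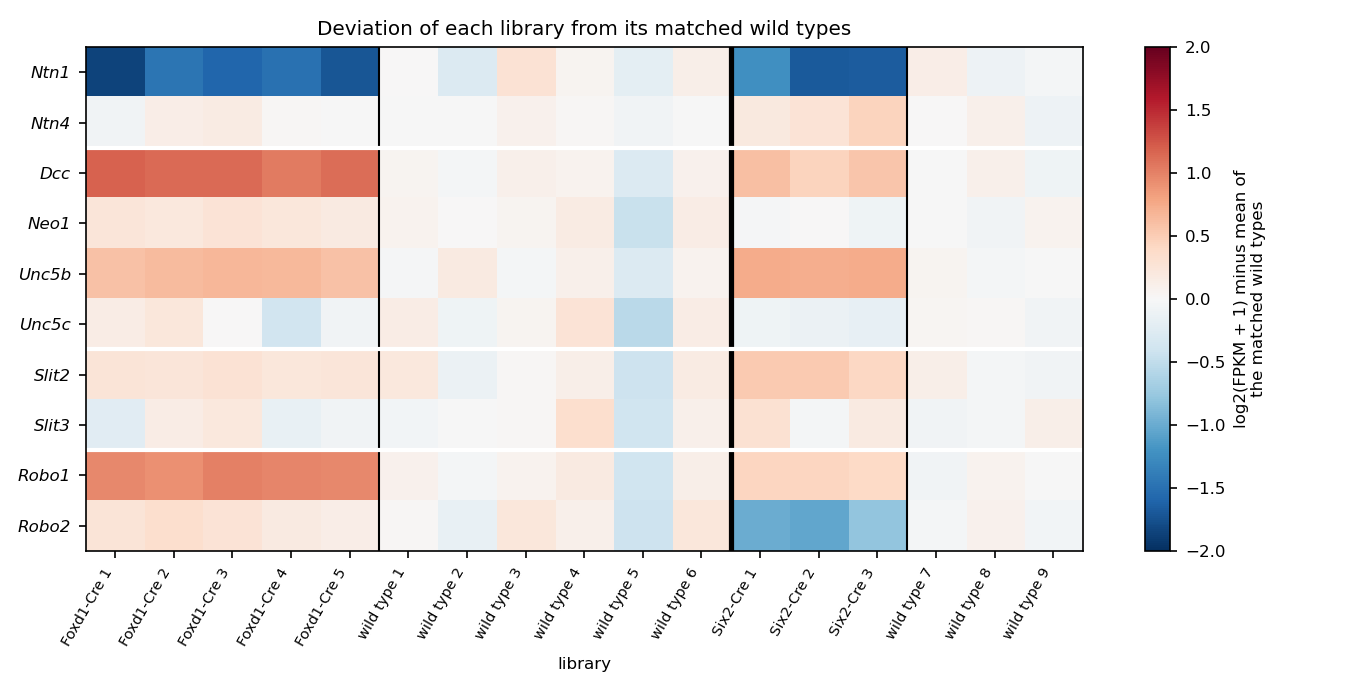
Heat map of log2(FPKM + 1) minus the mean of the matched wild types, for each gene (rows, grouped by role) and library (columns; thin lines part mutants from wild types, the thick line parts the library sets). The Ntn1 row is blue in all 8 mutant libraries and the Dcc, Unc5b and Robo1 rows are red in all 8, and wild type 5 is pale blue in most rows.

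Ratios between related genes within a library were taken as log2 of (FPKM + 0.1). They depend little on how libraries were scaled, except that of Ntn1 to Ntn4, where the added 0.1 is a large share of the Ntn4 values. The Robo1 to Robo2 ratio averaged -1.09 ± 0.10 in Foxd1-Cre kidneys (SD, n = 5) and -1.86 ± 0.11 in wild types (SD, n = 6), a difference of 0.76 (two-sided exact permutation p = 0.00433, adjusted p = 0.0115 over 8 tests). In Six2-Cre kidneys it averaged -0.35 ± 0.15, and in their wild types -1.74 ± 0.05 (SD, n = 3 each), a difference of 1.39. Robo1 thus gained on Robo2 in every mutant library of both kinds. With 3 libraries against 3 the exact permutation p cannot go below 0.1, the value that all 4 ratios reached in Six2-Cre kidneys.

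The Unc5b to Unc5c ratio averaged -0.09 ± 0.26 in Foxd1-Cre kidneys (SD, n = 5) and -0.77 ± 0.22 in wild types (SD, n = 6), a difference of 0.67 (two-sided exact permutation p = 0.00433, adjusted p = 0.0115). In Six2-Cre kidneys it averaged -1.14 ± 0.05, and in wild types -2.06 ± 0.07 (SD, n = 3 each), a difference of 0.92. The Ntn1 to Ntn4 ratio was lower by -1.85 in Foxd1-Cre kidneys (exact permutation adjusted p = 0.0115) and by -2.35 in Six2-Cre kidneys, where the low Ntn4 counts limit its precision. The Slit2 to Slit3 ratio differed by 0.28 in Foxd1-Cre kidneys (exact permutation p = 0.0303, adjusted p = 0.0606), which missed the threshold. There the ratio did pass without Foxd1-Cre replicate 2 or 3 (exact permutation adjusted p = 0.0381 for each) or wild type 1 (0.0159). In Six2-Cre kidneys the Slit2 to Slit3 ratio differed by 0.35. Its values were 1.31 to 1.67, against 0.89 to 1.28 in their wild types, without overlap. The permutation test cannot decide this difference, since its p cannot go below 0.1 there.

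**Figure D4:**
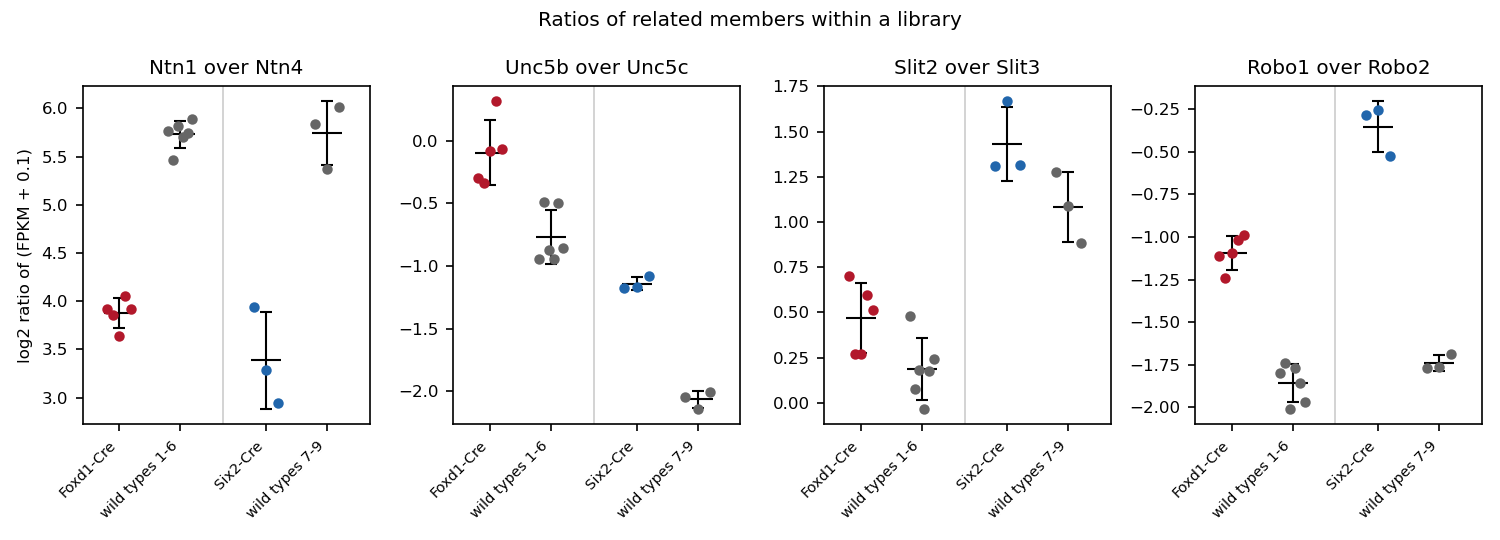
Log2 ratio of (FPKM + 0.1) of related genes in each library (points), with mean and SD per group (bars), mutants left of their wild types. Robo1 over Robo2 and Unc5b over Unc5c are higher, and Ntn1 over Ntn4 is lower, in every mutant library than in any of its wild types, while Slit2 over Slit3 overlaps in Foxd1-Cre kidneys.

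The order of the levels, in FPKM and hence per length, differed between mutants and wild types mainly through these genes. In Foxd1-Cre kidneys the order ran Robo2 (69.6), Neo1 (34.5), Robo1 (32.5), Unc5c (21.1), Unc5b (19.6), Slit2 (17.04), Slit3 (12.4), Ntn1 (8.35), Dcc (3.50) and Ntn4 (0.477), as mean FPKM. The neighbours Neo1 and Robo1, and Unc5c and Unc5b, had overlapping ranges there. In wild types 1 to 6 Ntn1 stood at 27.9 FPKM behind only Robo2 and Neo1, and the ranges of neighbours overlapped all the way from Neo1 down to Unc5b. In Six2-Cre kidneys the order ran Robo2 (52.5), Slit2 (45.7), Robo1 (41.0), Neo1 (36.1), Unc5c (33.1), Slit3 (16.95), Unc5b (14.9), Ntn1 (8.71), Dcc (3.11) and Ntn4 (0.740), and only Slit3 and Unc5b overlapped. In wild types 7 to 9 Robo2 led at 102 FPKM, with a range apart from that of the next gene. Neo1, Unc5c, Slit2, Robo1 and Ntn1 followed, and neighbours among these had overlapping ranges.

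The genes whose pattern was most like that of the 4 members called in both comparisons were sought by the smallest root-mean-square difference in log2 deviation from the matched wild types over the 17 libraries, among 13043 genes. This is a description of likeness, with no test. Robo1 and Dcc were among each other's nearest genes, with a difference of 0.116. Cachd1, which encodes a membrane protein related to calcium channel subunits, was nearest to Robo1 (0.0689), followed by Neto2 (0.106), and Nectin1, an adhesion molecule, joined Robo1 and Cachd1 beside Dcc (0.147). For Unc5b the nearest were Cdc42ep4 (0.104), Man1c1 (0.107) and Nid2 (0.108), which encodes the basement membrane protein nidogen-2. The genes nearest to Ntn1 were much less alike, among them Smoc2 (0.430), which encodes a secreted matricellular protein, and Cpa1 (0.502). Smoc2 averaged 6.60 ± 0.819 FPKM in Foxd1-Cre kidneys (SD, n = 5) and 14.9 ± 4.29 FPKM in wild types (SD, n = 6), and 6.62 ± 0.982 FPKM in Six2-Cre kidneys and 19.5 ± 3.92 FPKM in their wild types (SD, n = 3 each).

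Beyond the 10 genes, a list of 16 other netrins, Slits, receptors and co-receptors had 15 in the table and 10 that passed the filter. This list and the other lists below were chosen with earlier results of these data known. Their counts beside the shares over all genes are therefore a description and no test. In Foxd1-Cre kidneys 6 of the 10 rose and none fell, beside 8.45% of all genes higher and 4.82% lower. In Six2-Cre kidneys 4 rose and 1 fell, beside 7.93% of all genes higher and 5.84% lower. Its median log2 change was 0.32 in Foxd1-Cre kidneys and 0.30 in Six2-Cre kidneys, beside -0.01 over all genes in each. Ntng1, a membrane-anchored netrin-G ligand, averaged 11.5 ± 1.75 FPKM in Foxd1-Cre kidneys (SD, n = 5) and 2.01 ± 0.141 FPKM in wild types (SD, n = 6), with a log2 change of 2.04 ± 0.09 (SE, limma adjusted p = 1.8e-08). It rose more there than any of the 10 guidance genes. Its relative Ntng2 rose by 0.85 ± 0.07 (SE, limma adjusted p = 7.7e-06) and the receptor Unc5d by 1.21 ± 0.08 (SE, limma adjusted p = 6.7e-07). Unc5d also rose in Six2-Cre kidneys, by 0.70 ± 0.13 (SE, limma adjusted p = 0.0197). Its highest wild-type values were 0.447 FPKM in the Foxd1-Cre comparison and 0.547 FPKM in the Six2-Cre comparison. Its lowest mutant values were 1.60 and 1.19 FPKM, in that order. Unc5d thus passed the filter of 1 FPKM through the mutant libraries only, and both counts of rises include it.

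Flrt3, which encodes a membrane ligand of Unc5 receptors, rose in both mutants. It averaged 26.1 ± 2.169 FPKM in Six2-Cre kidneys and 12.0 ± 1.77 FPKM in wild types (SD, n = 3 each), a log2 change of 1.07 ± 0.11 (SE, limma adjusted p = 0.00312), and its log2 change in Foxd1-Cre kidneys was 0.66 ± 0.09 (SE, limma adjusted p = 0.000484). Mcam, a netrin-1 receptor also used by vessels, rose in both, by 0.29 ± 0.07 in Foxd1-Cre kidneys (SE, limma adjusted p = 0.0114). In Six2-Cre kidneys Mcam rose by 0.63 ± 0.08 (SE, limma adjusted p = 0.00508). Robo4, the Robo receptor of endothelial cells, rose by 0.60 ± 0.11 (SE, limma adjusted p = 0.0182), in libraries where all 10 endothelial markers rose. Rgma, a ligand of neogenin, fell by 0.45 on the log2 scale (limma adjusted p = 0.00662).

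Several of the genes that rose are also active in neurons, and neuronal and neural crest markers moved beside them. The sum of 10 such markers was 80.8 to 101 FPKM in Foxd1-Cre libraries, against 29.9 to 35.3 FPKM in wild types, and 48.3 to 70.7 FPKM in Six2-Cre libraries, against 22.8 to 31.6 FPKM in wild types. Of the 8 that passed the filter, Tubb3, Gap43 and Th rose and Stmn2 fell in Foxd1-Cre kidneys. Their log2 changes there were 2.99, 2.16, 0.96 and -0.97, in that order. In Six2-Cre kidneys 6 rose and none fell, with Stmn2 among the rises (log2 change 0.83, limma adjusted p = 0.03). Stmn2, a gene of differentiated neurons, averaged 4.83 ± 1.20 FPKM in Foxd1-Cre kidneys (SD, n = 5) and 10.2 ± 0.591 FPKM in wild types (SD, n = 6), and Elavl4, another, had a log2 change of -0.17 ± 0.17 (SE, limma adjusted p = 0.598) there. None of the 10 was at 0 in all libraries of a comparison. The part of neurons in the results for Dcc, Robo1, Ntng1 and Unc5d was not tested.

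Cytoplasmic partners carry the signal of these receptors to the cytoskeleton. Of 21 measured, none rose and 2 fell in Foxd1-Cre kidneys, beside 13.3% of all genes called, and 1 rose and 3 fell in Six2-Cre kidneys, beside 13.8%. These counts are near the shares over all genes, with medians of 0.02 and 0.07 on the log2 scale beside -0.01 over all genes. Dapk1, a kinase that Unc5 receptors engage, fell in both, by 0.21 in Foxd1-Cre kidneys (limma adjusted p = 0.00196) and by 0.63 in Six2-Cre kidneys (limma adjusted p = 0.0212). Trio, an exchange factor downstream of Dcc, fell by 0.26 in Foxd1-Cre kidneys (limma adjusted p = 0.000613). In Six2-Cre kidneys Srgap1, a Slit-Robo GTPase-activating protein, fell by 0.36 (limma adjusted p = 0.0189), Enah, an actin regulator, fell by 0.20 (limma adjusted p = 0.0462), and the adaptor Nck2 rose by 0.24 (limma adjusted p = 0.031).

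Heparan sulphate proteoglycans and the enzymes that build their chains hold Slits and netrins at the cell surface. Of 13 genes of this list, 4 rose and 1 fell in Foxd1-Cre kidneys, beside 13.3% of all genes called, and 2 rose and 2 fell in Six2-Cre kidneys, beside 13.8%, with medians of 0.12 and 0.07 on the log2 scale beside -0.01 over all genes. Sdc2, encoding syndecan-2, averaged 69.9 ± 8.86 FPKM in Foxd1-Cre kidneys (SD, n = 5) and 15.2 ± 1.10 FPKM in wild types (SD, n = 6), a log2 change of 2.12 ± 0.08 (SE, limma adjusted p = 5.0e-09). In Six2-Cre kidneys the log2 change of Sdc2 was -0.09 ± 0.11 (SE, limma adjusted p = 0.656), and the effects differed by 2.21 ± 0.14 (SE, limma adjusted p = 7.1e-07). Gpc4, encoding glypican-4, rose in both, by 0.93 ± 0.10 in Foxd1-Cre kidneys (SE, limma adjusted p = 7.5e-05) and by 1.05 ± 0.11 in Six2-Cre kidneys (SE, limma adjusted p = 0.00278). Ext1, which lengthens the chains, also rose in both, by 0.66 (limma adjusted p = 1.1e-06) and 0.23 (limma adjusted p = 0.0376). In Six2-Cre kidneys Sdc4 fell by 0.70 (limma adjusted p = 0.00419) and Gpc1 by 0.64 (limma adjusted p = 0.00484), and in Foxd1-Cre kidneys the sulphating enzyme gene Hs6st1 fell by 0.26 (limma adjusted p = 0.000511).

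**Figure D5:**
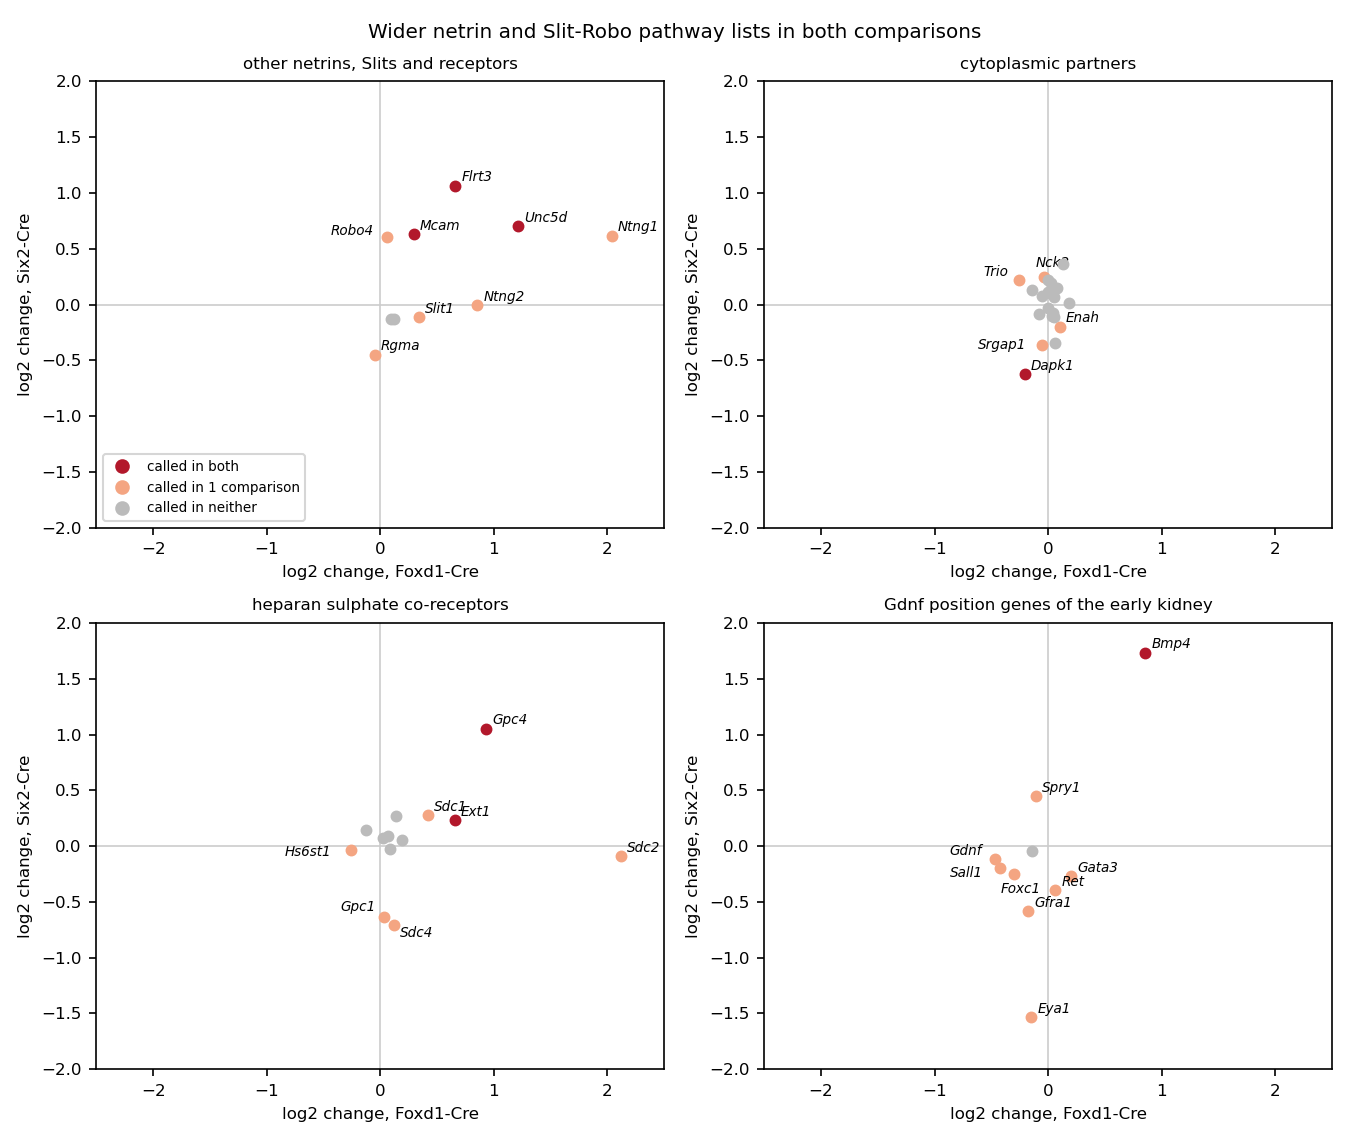
Log2 change of FPKM + 1 in Foxd1-Cre kidneys (horizontal axis) and Six2-Cre kidneys (vertical axis) for the tested genes of 4 wider lists, coloured by whether limma called them in both comparisons, in 1 or in neither. Flrt3, Gpc4 and Bmp4 lie at the upper right and are called in both, Sdc2 and Ntng1 lie far to the right, and the cytoplasmic partners gather near 0.

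A list of 10 genes that set the position of Gdnf and the ureteric bud had 1 rise and 3 falls in Foxd1-Cre kidneys, beside 13.3% of all genes called, and 2 rises and 4 falls in Six2-Cre kidneys, beside 13.8%, with medians of -0.14 and -0.23 on the log2 scale beside -0.01 over all genes. Eya1 of this list is also a nephron progenitor marker, and Ret a ureteric bud marker. Bmp4, an inhibitor of ureteric budding, rose in both: it averaged 26.4 ± 1.96 FPKM in Foxd1-Cre kidneys (SD, n = 5) and 14.2 ± 2.37 FPKM in wild types (SD, n = 6), and 34.7 ± 2.38 FPKM in Six2-Cre kidneys and 9.78 ± 1.42 FPKM in wild types (SD, n = 3 each). Its log2 changes were 0.85 ± 0.10 (SE, limma adjusted p = 9.7e-05) in Foxd1-Cre and 1.74 ± 0.11 (SE, limma adjusted p = 0.000801) in Six2-Cre kidneys. Gdnf averaged 14.4 ± 1.72 FPKM in Foxd1-Cre kidneys (SD, n = 5) and 20.3 ± 1.85 FPKM in wild types (SD, n = 6) and fell by 0.47 (limma adjusted p = 0.00254), with Sall1 (fell by 0.43, limma adjusted p = 0.000415) and Foxc1 (fell by 0.30, limma adjusted p = 0.0147), both transcription factor genes. In Six2-Cre kidneys Eya1, which activates Gdnf, averaged 19.0 ± 0.691 FPKM against 57.1 ± 4.22 FPKM in wild types (SD, n = 3 each), a log2 change of -1.54 ± 0.06 (SE, limma adjusted p = 0.000175). Gdnf itself was not called in Six2-Cre kidneys, with a log2 change of -0.12 ± 0.08 (SE, limma adjusted p = 0.407). The Gdnf co-receptor gene Gfra1 fell there by 0.59 (limma adjusted p = 0.00213), and Spry1, an antagonist of Ret signalling, rose by 0.45 (limma adjusted p = 0.00838).

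The remaining marker lists give the setting of these values. The sum of 10 ureteric bud markers was 188 to 246 FPKM in Foxd1-Cre libraries, against 180 to 217 FPKM in wild types, and 1 of the 10 rose. In Six2-Cre libraries it was 131 to 133 FPKM, against 173 to 182 FPKM in wild types, and 6 of the 10 fell. For 8 mural and smooth muscle markers the sum was 97.9 to 157 FPKM in Foxd1-Cre libraries, against 66.8 to 131 FPKM in wild types, and 149 to 172 FPKM in Six2-Cre libraries, against 85.8 to 90.9 FPKM in wild types. Of the 7 that passed the filter, 3 rose in Foxd1-Cre kidneys, and 5 rose and 1 fell in Six2-Cre kidneys. The erythroid sum of 8 markers was 1019 to 2234 FPKM in Foxd1-Cre libraries, against 1459 to 2417 FPKM in wild types, and 1906 to 2521 FPKM in Six2-Cre libraries, against 3924 to 4834 FPKM in wild types, and of 5 that passed the filter 3 fell in Foxd1-Cre kidneys, and 4 fell and 1 rose in Six2-Cre kidneys.

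Some of the 10 genes overlap other annotated genes by their whole spans, which does not show that exons are shared. No source says whether strand was used in counting, which bears on the opposite-strand genes only. Whether any value holds reads of an overlapping gene was not tested. The annotation places a microRNA gene in Slit2 (Mir218-1) and in Slit3 (Mir218-2), each listed at 0 in 16 of the 17 libraries, and the intronic gene Gm12122 in Slit3 reached 8.38 FPKM. The opposite-strand gene Mir6406 in Ntn1 was at 0 in 15 libraries, and the pseudogene Gm8580 and antisense gene Gm15915 in Ntn4 stayed at or below 2.20 FPKM, a value above any of Ntn4 itself. Apart from Dcc, each of the 10 genes also overlaps annotated genes that were not used here, among them Gm12305 on the same strand in an intron of Ntn1.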

How the data were processed

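Kidneys were stored in RNAlater before RNeasy Micro extraction, and libraries followed Illumina's standard protocols, per the labels' protocols. The authors deposited 1 table of FPKM values (levels per transcript length and sequencing depth) for 24432 gene IDs and 17 libraries. Base calling with bcl2fastq 2.17.1.14, quantification with Salmon and the GRCm38 (mm10) build are named per the submitters' processing notes. The annotation release, the gene-level summary, strand, scaling and depth are not given in the sources used here. Long transcripts hold more fragments at equal FPKM, so their values are more precise.

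Groups came from the sample titles. The members, wider lists and marker lists were chosen with earlier results of these data known. Gene IDs were matched to GENCODE release 21 for mouse. The filter asked for 1 FPKM or more in 3 or more libraries (14014 genes). On log2(FPKM + 1), limma 3.58.1 (R 4.3.3) with a trended prior variance was run separately for Foxd1-Cre with wild types 1 to 6 and Six2-Cre with wild types 7 to 9. Genes at 0 in all libraries of a comparison were left out of it. For the difference of effects, standard errors were combined in squares, with degrees of freedom after Satterthwaite. The scripts were tested on simulated data with 200 changed genes. Ratios used exact permutation tests (scipy 1.17.1). Read estimates came from the smallest steps between FPKM values and the longest annotated transcript, and cover counting error only.

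Named were all members, up to 4 called genes with the smallest p per wider list and comparison, and the 3 genes most like each member called in both comparisons, predicted genes and pseudogenes left out; 1 gene named by this rule is not reported here. Single cell type markers were named where a member moved with them. Alternatives were a pseudocount of 0.1, no filter, a filter at 5 FPKM, rescaling to equal sums, all 9 wild types as controls, a replicate block and leaving out each library.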

Additional observations from a re-analysis of the deposited data

Results flagged for a closer look

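Wild type 5 was far below the other wild types of its set for Neo1, at 21.3 FPKM. It was the only value to stand apart among 20 pairs of a gene and a group of 5 or 6 libraries, and chance gives such a value in about 1 of 20 groups. By the test of the difference, 3 genes were called. The log2 effect in Foxd1-Cre kidneys exceeded that in Six2-Cre kidneys by 0.58 for Dcc, 0.54 for Robo1 and 1.18 for Robo2. Mutant and library set cannot be told apart in these differences.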

How the results depend on the processing

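With all 9 wild types as controls, which mixes the library sets, 1234 genes were called in Foxd1-Cre kidneys (897 higher, 337 lower; 1182 and 674 in the set-matched comparison), 6444 in Six2-Cre kidneys (2747 and 3697; 1097 and 808 set-matched) and 8505 for the difference of effects (5108 and 3397; 1519 in all set-matched). There the Foxd1-Cre log2 changes of Slit2 (-0.13) and Robo2 (-0.0224), the Six2-Cre changes of Neo1 (0.18) and Unc5c (0.38), and the differences of Neo1 (-0.0651), Unc5b (0.37), Unc5c (-0.64) and Robo1 (-0.32) took the other sign. The differences of Dcc (0.13, limma adjusted p = 0.434) and Robo2 (0.40, limma adjusted p = 0.145) were no longer called, while those of Slit2 (-1.37) and Slit3 (-0.43) were. Rescaling to equal sums turned 3 changes near 0 that were not called (Unc5c 0.0174 and Slit3 0.0158 in Foxd1-Cre, Neo1 0.00572 in Six2-Cre kidneys) and moved the split of Foxd1-Cre calls to 1228 higher and 405 lower. Leaving out 1 library at a time gave 907 to 1467 called genes in Six2-Cre kidneys (1099 or fewer without any library other than wild type 9) and 4 to 5, 5 to 6 and 2 to 4 members called for Foxd1-Cre, Six2-Cre and the difference. It also moved changes near 0 through 0 (Slit3 -0.0938 to 0.0508 and Unc5c -0.122 to 0.0777 in Foxd1-Cre kidneys, Neo1 -0.0653 to 0.0047 in Six2-Cre kidneys, the difference of Ntn1 -0.177 to 0.0524), and gave Slit2 to Slit3 ratio differences of 0.23 to 0.34 in Foxd1-Cre kidneys. The 5 FPKM filter removed Dcc. Same-numbered Foxd1-Cre and wild-type libraries did not deviate together (correlations 0.0224 to 0.0993), so the numbers were not taken as pairs: a replicate block called the same number of members, 4, and 1425 genes, with Unc5c at 0.0146 and Slit3 at 0.00509. No paired analysis was possible for Six2-Cre because its replicate numbers are not shared with wild types 7 to 9. The calls of Ntn1, Unc5b and Robo1 in both comparisons held under each alternative run here. The cause of these changes was not tested beyond what each setting changes by construction.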
